A study of Homo sapiens with 11 samples.

Results

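The miRNAs described here lie inside genes of lipid and energy metabolism. They are hsa-miR-103a-3p and hsa-miR-107 from introns of pantothenate kinase genes, hsa-miR-33a-5p and hsa-miR-33b-5p from introns of the SREBF genes, and hsa-miR-378a-3p and hsa-miR-378a-5p from an intron of PPARGC1B (the prefix hsa, for human, is left out from here on). These 6 members of 2588 mature miRNAs were chosen by name, and their levels were compared across 6 human tumour-derived cell lines by small RNA sequencing. The rows of the tables whose gene name equalled a member were taken, rows of the same name were summed, and each library was rescaled to the same total, in counts per 1000000 reads assigned to miRNAs (CPM). The parental lines were cultured without any treatment and derive from lung cancer (A-549, 2 libraries), ovarian cancer (ES-2, 2), melanoma (MV3, 2), pancreatic cancer (PANC-1, 1), neuroblastoma (BE(2)-C, 2) and liver cancer (Hep-G2, 2). A NEXTflex kit with 50 ng of total RNA was used for PANC-1, MV3, ES-2 and A-549, whereas a company, Novogene, made the Hep-G2 and BE(2)-C libraries. The sequencer and the read length changed with the preparation, so that line and preparation cannot be told apart between the 4 NEXTflex and the 2 Novogene lines. All cells were harvested 48 h upon seeding except those of BE(2)-C, for which the protocol states 24 h and the sample label 48 h.

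Pantothenate kinases (PANK1, PANK2 and PANK3) catalyse the initial step of coenzyme A synthesis, SREBF1 and SREBF2 encode transcription factors of fatty acid and cholesterol synthesis, and PPARGC1B encodes a transcriptional coactivator of mitochondrial genes. An intronic miRNA can be processed from the same primary transcript as its host. MiR-33a and miR-33b are known to repress the cholesterol transporter ABCA1, miR-103 and miR-107 are known as regulators of insulin sensitivity, and miR-378a has been linked to mitochondrial metabolism.

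All 6 members were found in RefSeq (GRCh38.p14) and are shown because their sequences define 3 pairs. Capitals mark the seed, bases 2 to 8 from the 5′ end, with which a miRNA pairs to its targets.
miR-103a-3p: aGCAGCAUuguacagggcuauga
miR-107: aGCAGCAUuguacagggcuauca
miR-33a-5p: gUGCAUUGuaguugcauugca
miR-33b-5p: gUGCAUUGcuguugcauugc
miR-378a-3p: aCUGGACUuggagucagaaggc
miR-378a-5p: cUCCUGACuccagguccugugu
MiR-103a-3p and miR-107 have the same length of 23 bases and the same seed, and differ only by G22C near the 3′ end (the base of miR-103a-3p first, positions counted from the 5′ end). They are the 2 miRNAs with this seed among the 2281 mature miRNAs with a RefSeq sequence, to which the search for seeds was limited. MiR-33a-5p (21 bases) and miR-33b-5p (20 bases) likewise share a seed that no other miRNA in this search carries. They differ by U9C and A10U just behind the seed. MiR-378a-3p and miR-378a-5p are the opposite arms of a single hairpin and therefore have unrelated seeds. Of the miRNAs searched, 7 carry the seed of miR-378a-3p, itself included, and only miR-378a-5p carries its own. MiRNAs of the tables without a RefSeq sequence were not searched, so that these counts may be too low.

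In the GENCODE release 44 annotation of GRCh38, each of the 6 hairpins lies in an intron of its host on the same strand. No annotated transcript of a host overlaps a hairpin with an exon. MIR103A1 (chr5:168560896-168560973, minus strand), MIR103A2 (chr20:3917494-3917571, plus strand) and MIR107 (chr10:89592747-89592827, minus strand) occupy intron 5 of 6 of PANK3, PANK2 and PANK1, respectively. MIR33A (chr22:41900944-41901012, plus strand) and MIR33B (chr17:17813836-17813931, minus strand) lie in intron 16 of 18 of SREBF2 and SREBF1. MIR378A (chr5:149732825-149732890, plus strand) lies in intron 1 of 11 of PPARGC1B. Introns are numbered in the MANE transcript. The mRNAs of the hosts were not analysed here. MiR-103a-3p is the only member with 2 genomic copies, and between 48.8% and 51.3% of its reads were listed at the copy in PANK3. Identical sequences cannot be placed at a copy, so no level can be given for PANK3 and PANK2 separately.

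Libraries held 1173902 to 12137452 miRNA reads. Where no read was counted, up to 3 reads are still possible, which equals 2.56 CPM at the lowest and 0.247 CPM at the highest depth. On the log2 scale a single library varied with an SD of 0.20 to 0.38 in the other replicated lines but of 0.70 in BE(2)-C. Its 2 values, in CPM or in reads, are therefore given separately for each member. Liver markers summed to between 742055 and 768676 CPM in Hep-G2 and to 6501 CPM at most elsewhere, and the Hep-G2 sum came mostly from miR-148a-3p. Of the others, miR-192-5p was also highest in Hep-G2 (15859 CPM), but miR-194-5p was at 230 CPM in Hep-G2 and 1891 CPM in A-549. The defining marker miR-122-5p was at 57.0 CPM in Hep-G2 and at 415 ± 578 CPM in BE(2)-C (SD, n = 2). The BE(2)-C replicates were 138-fold apart for miR-122-5p, with 823 CPM in replicate 1 as the higher value. Neuronal markers summed to at least 84656 CPM in BE(2)-C and to 2035 CPM at most elsewhere. The BE(2)-C sum was mostly miR-218-5p (78501 CPM), with miR-9-5p at 16715 CPM and miR-124-3p at 22.9 CPM. The 3 melanocyte markers had no read in MV3. Pancreas markers reached only 26.8 CPM in PANC-1, but between 4870 and 6379 CPM in BE(2)-C, mostly from miR-375 (5619 CPM). A single miRNA, miR-148a-3p, took 739220 ± 19263 CPM in Hep-G2 (SD, n = 2). Members are therefore also given after scaling with TMM (trimmed mean of M-values) factors over all libraries, which were 0.166 and 0.217 in Hep-G2 and between 1.02 and 1.87 in the others. TMM-scaled CPM is CPM divided by this factor. The 6 members together held 0.452% to 1.69% of the reads in the NEXTflex and 0.244% to 1.54% in the Novogene libraries.

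MiR-103a-3p was the most abundant member in every library. It accounted for 88.0% to 96.9% of the members' reads in the NEXTflex and for 66.0% to 79.1% in the Novogene libraries. Its level was 4286 and 4546 CPM in A-549, 6323 and 6482 CPM in ES-2, 15345 and 16366 CPM in MV3 and 6562 CPM in PANC-1. In BE(2)-C it was 6037 and 12140 CPM, and in Hep-G2 1770 and 2147 CPM. MV3 libraries were thus the highest and Hep-G2 libraries the lowest, and the replicates of BE(2)-C, which differed 2.01-fold, enclosed the PANC-1 value. The mean of MV3 was 8.09 times that of Hep-G2. The order from MV3 over BE(2)-C, PANC-1, ES-2 and A-549 to Hep-G2 had overlapping neighbours only for BE(2)-C and PANC-1, and the range of BE(2)-C also enclosed both ES-2 libraries. After TMM scaling, Hep-G2 was highest with 10272 ± 536 (SD, n = 2), followed by MV3 with 8573 ± 226 (SD, n = 2), and PANC-1 was lowest with 3719. The span then narrowed to 2.76-fold.

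MiR-107, which differs from miR-103a-3p by a single base, was far less abundant. It reached 70.0 and 65.0 CPM in A-549, 143 and 140 CPM in ES-2, 123 and 140 CPM in MV3 and 108 CPM in PANC-1. In BE(2)-C the replicates were 4.03-fold apart with 67.4 and 272 CPM, and in Hep-G2 the level was 19.6 and 20.6 CPM. Hep-G2 was again lowest and A-549 the lowest of the NEXTflex lines, while ES-2 and MV3 overlapped and the range of BE(2)-C covered that of ES-2. TMM scaling reduced the span between the highest and lowest line from 8.43-fold to 1.76-fold and placed PANC-1 (61.0) lowest, with A-549 replicate 2 at 58.9. BE(2)-C replicate 1 set part of this span, since without it the line means spanned 13.5-fold on the CPM scale and 2.76-fold after TMM scaling.

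MiR-378a-3p was high in BE(2)-C and low in A-549. The level was 148 and 138 CPM in A-549, 693 and 676 CPM in ES-2, 389 and 365 CPM in MV3 and 389 CPM in PANC-1. The Novogene libraries gave 3028 and 2909 CPM in BE(2)-C and 647 and 560 CPM in Hep-G2. The replicates of each line agreed within a factor of 1.15, and only PANC-1 and MV3 overlapped. The line means spanned 20.8-fold. After TMM scaling A-549 remained lowest with 135 ± 14.0 (SD, n = 2), but Hep-G2 with 3238 ± 927 (SD, n = 2) was above BE(2)-C with 1946 ± 203 (SD, n = 2), and no neighbouring lines overlapped. Relative to miR-103a-3p within the same library, miR-378a-3p had 2.23 to 10.95 reads per 100 in the NEXTflex and 24.0 to 50.2 reads per 100 in the Novogene libraries.

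MiR-378a-5p, the other arm of the hairpin, was weakly detected. The level was 8.24 and 3.88 CPM in A-549, 16.2 and 27.0 CPM in ES-2, 16.2 and 10.3 CPM in MV3 and 12.4 CPM in PANC-1. It was 15.3 and 25.5 CPM in BE(2)-C and 1.18 and 1.15 CPM in Hep-G2, where 14 reads were counted in each library. Replicates differed by up to 2.12-fold in A-549. The libraries of ES-2 and BE(2)-C, of BE(2)-C and MV3 and of MV3 and PANC-1 overlapped, PANC-1 was below both ES-2 and both BE(2)-C libraries, and Hep-G2 stood below all others on the CPM scale. With TMM factors Hep-G2 (6.20 ± 1.26, SD, n = 2) overlapped A-549 (5.80 ± 3.22, SD, n = 2), and the span of the line means was 2.82-fold, or 4.65-fold without A-549 replicate 1.

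**Figure D1:**
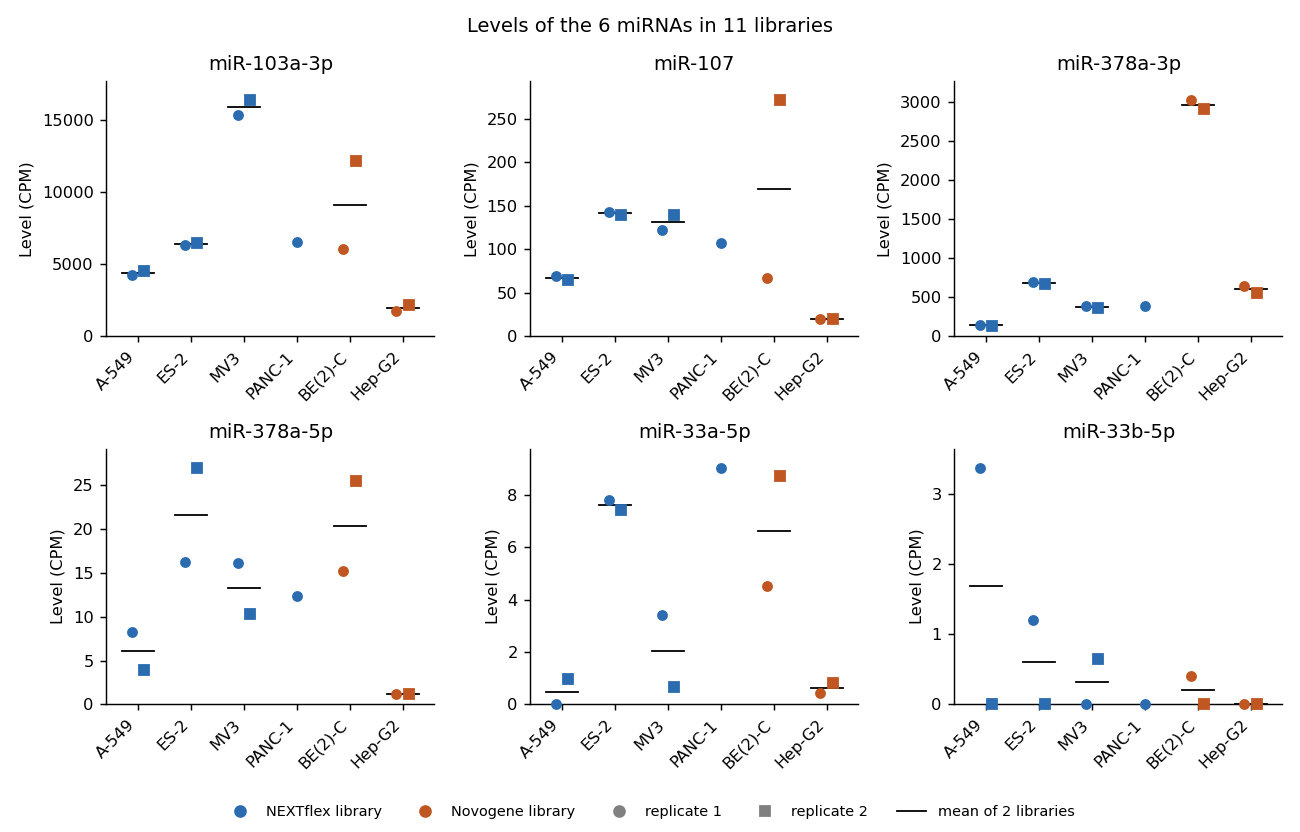
Level of each of the 6 miRNAs in CPM (linear axes from 0, scaled per panel) in every library by cell line, with blue for NEXTflex and orange for Novogene libraries, circles for replicate 1, squares for replicate 2 and a line for the mean of 2 libraries. MiR-103a-3p is highest in MV3 (15345 and 16366 CPM) and miR-378a-3p in BE(2)-C (3028 and 2909 CPM), and the replicates of BE(2)-C lie far apart for miR-103a-3p and miR-107.

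The miR-33 pair was close to the detection limit. MiR-33a-5p had 0 and 2 reads in A-549, 13 and 17 in ES-2, 4 and 1 in MV3, 88 in PANC-1, 34 and 57 in BE(2)-C and 5 and 10 in Hep-G2. These counts equal 7.82 and 7.41 CPM in ES-2, 9.03 CPM in PANC-1, and 4.52 and 8.72 CPM in BE(2)-C. The 95% Wilson interval for PANC-1 was 7.33 to 11.1 CPM and lay above those of the Hep-G2 libraries, which reached 1.52 CPM at most, and of the A-549 libraries, which reached 3.54 CPM. With TMM factors, ES-2 was highest with 5.93 and 5.59, PANC-1 was at 5.12 (4.15 to 6.30), and the intervals of the Hep-G2 libraries, which reached up to 5.93 and 6.99, overlapped that of PANC-1. Intervals and floors cover counting error only. MiR-33b-5p had 15 reads in all 11 libraries together, 9 of them in A-549 replicate 1 and 0 in 7 libraries. The BE(2)-C libraries had 3 and 0 reads. The 0 reads in PANC-1 and in the deepest Hep-G2 library allow a level of up to 0.308 and 0.247 CPM, so that no order of the lines can be read for miR-33b-5p.

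Reads of the miR-33b hairpin came mostly from its other arm. MiR-33b-3p is shown as the arm that was read most.
miR-33b-3p: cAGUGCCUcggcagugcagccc
It had 196 reads in all libraries against 15 of miR-33b-5p, so that the 5p arm made up 7.11% (95% Wilson interval 4.36% to 11.4%). This interval pools the reads of all libraries and does not cover the spread between them. By line the share ran from 0% in PANC-1 and Hep-G2 to 16.7% in A-549. The 3p arm was the higher of both in each of the 11 libraries. In miR-33a the arms were more even, with 231 reads of the 5p and 193 of the 3p arm, but the lines differed. PANC-1 had 88 reads of miR-33a-5p and 0 of miR-33a-3p, ES-2 had 30 and 11, and BE(2)-C had 91 and 160. The share of the 5p arm was 100% in PANC-1 (95% Wilson interval 95.8% to 100%) and 36.3% in BE(2)-C (30.6% to 42.4%, its libraries pooled). This was not tested between lines because PANC-1 had 1 library and BE(2)-C another preparation.

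**Figure D2:**
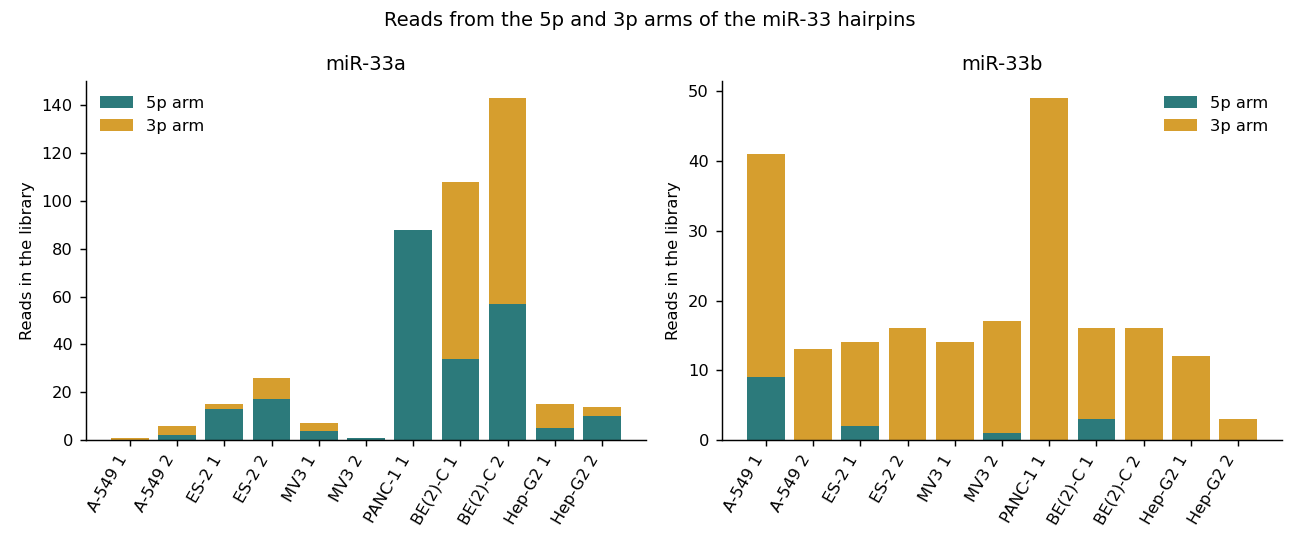
Reads of the 5p arm (teal) and the 3p arm (yellow), stacked, for the miR-33a and miR-33b hairpins in each of the 11 libraries; both axes are linear and give raw reads. MiR-33a reads in PANC-1 are all from the 5p arm (88 reads), whereas the miR-33b reads are mainly from the 3p arm in each library.

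Differences between lines were tested with limma on log2(CPM + 1) for miRNAs whose mean reached 10 CPM in 1 or more lines, with Benjamini-Hochberg adjustment over all tested miRNAs. Of the 6 members 4 passed this filter, and miR-33a-5p and miR-33b-5p did not. Across the 6 lines 4 members differed, where 99.3% of the 546 tested miRNAs did, so that passing this test does not set the members apart. The adjusted p was 0.000313 for miR-103a-3p, 0.00878 for miR-107, 6.23e-07 for miR-378a-3p and 0.00130 for miR-378a-5p. With TMM factors it was 0.00487 for miR-103a-3p and 1.27e-06 for miR-378a-3p, but 0.553 for miR-107 and 0.0974 for miR-378a-5p. Without Hep-G2 replicate 1 or replicate 2, miR-107 gave an adjusted p of 0.0649 or 0.0593. Within the 4 NEXTflex lines, fitted alone, 3 members differed, against 85.4% of 453 tested miRNAs. The adjusted p was 5.85e-05 for miR-103a-3p, 0.00403 for miR-107 and 9.15e-05 for miR-378a-3p, and these members also passed with TMM factors (0.00165, 0.0274 and 0.000399). MiR-378a-5p gave 0.114, and 0.0405 without the PANC-1 library.

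Pairs of lines were compared only within a preparation, where both had 2 libraries. The median difference over all tested miRNAs was -0.17 for A-549 minus ES-2, -0.47 for A-549 minus MV3, -0.36 for ES-2 minus MV3 and 2.79 for BE(2)-C minus Hep-G2 on the log2(CPM + 1) scale. With TMM factors these medians were 0 for each of the 3 NEXTflex pairs and 0.49 for the Novogene pair. Among the called miRNAs, 46.7%, 34.8%, 27.4% and 90.1% were higher in the line named first for the 4 pairs in the same order, and 55.0%, 56.1%, 47.3% and 64.4% with TMM factors. A member's difference has to be read against these shifts.

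MiR-378a-3p was lower in A-549 than in ES-2 by the largest margin of the 4 tested members. The log2 difference was -2.25 ± 0.14 (SE; adjusted p = 1.12e-05, limma), and -1.94 ± 0.22 with TMM factors (adjusted p = 0.000147). MiR-378a-5p from the same hairpin was also lower (-1.71 ± 0.47, adjusted p = 0.0171), but without A-549 replicate 2 or ES-2 replicate 2 the adjusted p was 0.0918 or 0.0943. These were 2 of the 4 tested members, and 50.5% of all tested miRNAs passed in this pair. MiR-103a-3p (-0.54 ± 0.30, adjusted p = 0.172) and miR-107 (-1.06 ± 0.55, adjusted p = 0.151) did not pass, although both A-549 libraries were below both ES-2 libraries. The spread in this fit was shared with BE(2)-C, and with NEXTflex libraries alone both passed at the same difference (adjusted p = 0.00106 and 0.00186). Without BE(2)-C replicate 1 or 2, the adjusted p was 0.00696 or 0.00640 for miR-103a-3p and 0.000448 or 0.000543 for miR-107.

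Against MV3, A-549 was lower in miR-103a-3p and miR-378a-3p. The log2 difference was -1.84 ± 0.30 for miR-103a-3p (adjusted p = 0.00134, limma) and -1.40 ± 0.14 for miR-378a-3p (adjusted p = 0.000118). These 2 calls compare with 57.3% of all tested miRNAs. With TMM factors miR-103a-3p passed at -1.04 ± 0.25 (adjusted p = 0.0112), whereas miR-378a-3p was at -0.60 ± 0.22 (adjusted p = 0.0556). MiR-107 (-0.95 ± 0.55, adjusted p = 0.181) gave 0.00278 in NEXTflex libraries alone and 0.000709 or 0.000842 without BE(2)-C replicate 1 or 2, but was at -0.15 ± 0.51 with TMM factors (adjusted p = 0.868). MiR-378a-5p (-1.05 ± 0.47, adjusted p = 0.0906) gave 0.0473 without A-549 replicate 1 and was at -0.32 ± 0.47 with TMM factors (adjusted p = 0.631).

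Between ES-2 and MV3, the 2 called members went in opposite directions, where 32.8% of all tested miRNAs passed. MiR-103a-3p was lower in ES-2 (-1.31 ± 0.30, adjusted p = 0.0119, limma) and miR-378a-3p was higher (0.86 ± 0.14, adjusted p = 0.00277). Both directions held with TMM factors (-0.82 ± 0.25, adjusted p = 0.0478, and 1.34 ± 0.22, adjusted p = 0.00275). Leaving out any one of the 4 libraries of this pair took miR-103a-3p to an adjusted p between 0.0532 (without ES-2 replicate 2) and 0.0673 (without MV3 replicate 2), with 0.0630 without ES-2 replicate 1 and 0.0566 without MV3 replicate 1. With the NEXTflex libraries alone its adjusted p was 0.000111. MiR-107 was at 0.11 ± 0.55 (adjusted p = 0.967), although it shares its seed with miR-103a-3p.

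In BE(2)-C all 4 tested members were higher than in Hep-G2 on the CPM scale, as were most miRNAs, with 83.0% of the tested miRNAs called. The log2 difference was 2.13 ± 0.30 for miR-103a-3p (adjusted p = 0.000239, limma), 2.69 ± 0.55 for miR-107 (adjusted p = 0.00212), 2.299 ± 0.14 for miR-378a-3p (adjusted p = 1.74e-06) and 3.26 ± 0.47 for miR-378a-5p (adjusted p = 0.000287). Only the last exceeded the median of 2.79. With TMM factors the direction turned for miR-103a-3p (-0.87 ± 0.25, adjusted p = 0.0161) and miR-378a-3p (-0.71 ± 0.22, adjusted p = 0.0217), which were then called lower in BE(2)-C. MiR-107 was at -0.25 ± 0.51 (adjusted p = 0.704) and miR-378a-5p at 0.96 ± 0.47 (adjusted p = 0.110). The direction between these 2 lines thus turned for 3 members with TMM factors, and with quantile normalization it turned for all 4 tested members, with miR-378a-5p at -0.84 (adjusted p = 0.108). MiR-148a-3p took 739220 CPM in Hep-G2 against 2770 CPM in BE(2)-C. Its part in the result was not tested.

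**Figure D3:**
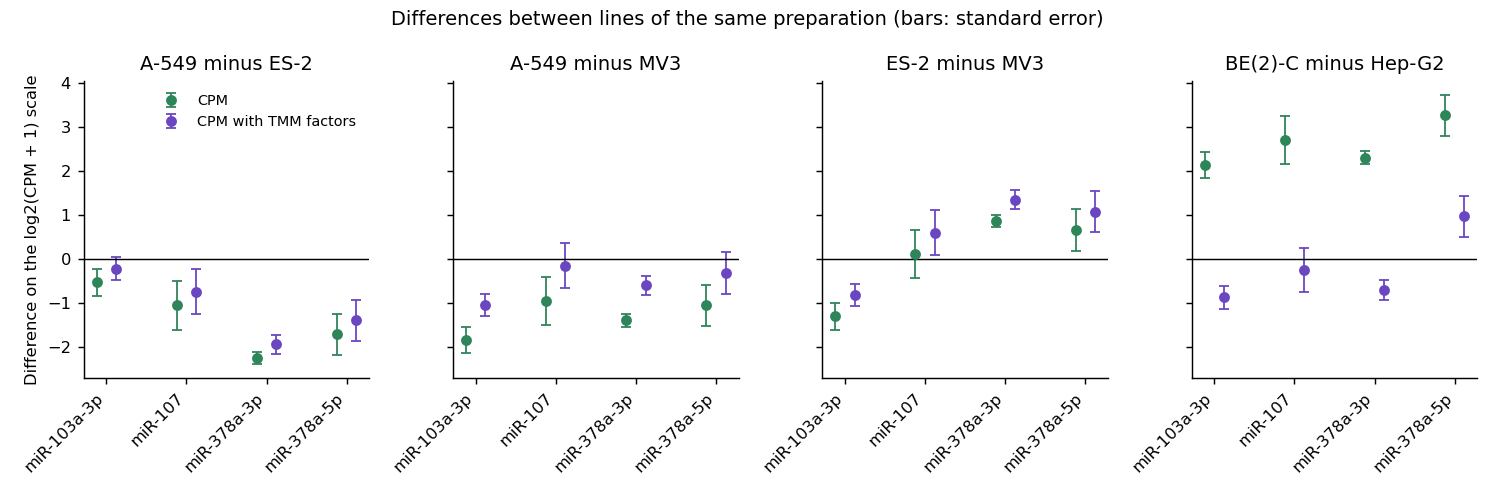
Difference between 2 lines of the same preparation for the 4 tested members on the log2(CPM + 1) scale, from CPM (green) and from CPM with TMM factors (purple), with bars for the standard error. In A-549 minus MV3 and ES-2 minus MV3, miR-103a-3p lies below 0 with either scaling, whereas in BE(2)-C minus Hep-G2 it changes from 2.13 to -0.87.

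Ratios within a library need no scaling between libraries and were tested by exact permutation of the F statistic, adjusted over 3 ratios. A one-sided test of this kind has no direction. The ratio of miR-103a-3p to miR-107, computed with 0.5 reads added to either count, was 61.0 and 69.7 in A-549, 44.1 and 46.3 in ES-2, 125 and 117 in MV3 and 60.9 in PANC-1. It was 89.5 and 44.7 in BE(2)-C and 90.1 and 104 in Hep-G2. MV3 libraries were thus above all others, ES-2 was the lowest NEXTflex line, and the 2 BE(2)-C libraries lay apart, replicate 2 between the ES-2 libraries and replicate 1 just under those of Hep-G2. Across the 6 lines the ratio gave p = 0.0697 (adjusted p = 0.105, exact permutation test), and an adjusted p of 0.00508 or 0.00635 without BE(2)-C replicate 1 or 2. Across the 4 NEXTflex lines the ratio gave p = 0.0190 (adjusted p = 0.0571, exact permutation test), where the smallest p the design allows is 0.00952. The highest of these lines, MV3, was 2.67 times the lowest, ES-2, but this pair was not tested alone. The split between miRNAs that differ by a single base is uncertain, since the number of mismatches allowed is not given in the sources used here.

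The 3p arm of miR-378a outnumbered the 5p arm in every library, and by more in the Novogene libraries. The ratio of miR-378a-3p to miR-378a-5p was 17.5 and 33.5 in A-549, 41.9 and 24.8 in ES-2, 23.5 and 34.3 in MV3 and 31.2 in PANC-1. It was 197 and 114 in BE(2)-C and 530 and 469 in Hep-G2. Every Novogene library was above every NEXTflex library, and Hep-G2 was above BE(2)-C. Across the 6 lines the ratio differed with p = 0.00875 (adjusted p = 0.0263, exact permutation test), whereas within the NEXTflex lines it gave p = 0.857, with line ratios between 24.2 and 32.3. Without Hep-G2 replicate 1 or 2 the adjusted p across the 6 lines was 0.0832 or 0.0616. Preparation and line cannot be told apart in this ratio between the 2 sets of lines, and within Novogene the 2 libraries per line are too few for an exact test to reach the threshold. The ratio of miR-33a-5p to miR-33b-5p gave p = 0.252 across the 6 lines and p = 0.352 within NEXTflex (adjusted p = 0.252 and 0.529, exact permutation test), with counts of miR-33b-5p too low to show a difference.

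**Figure D4:**
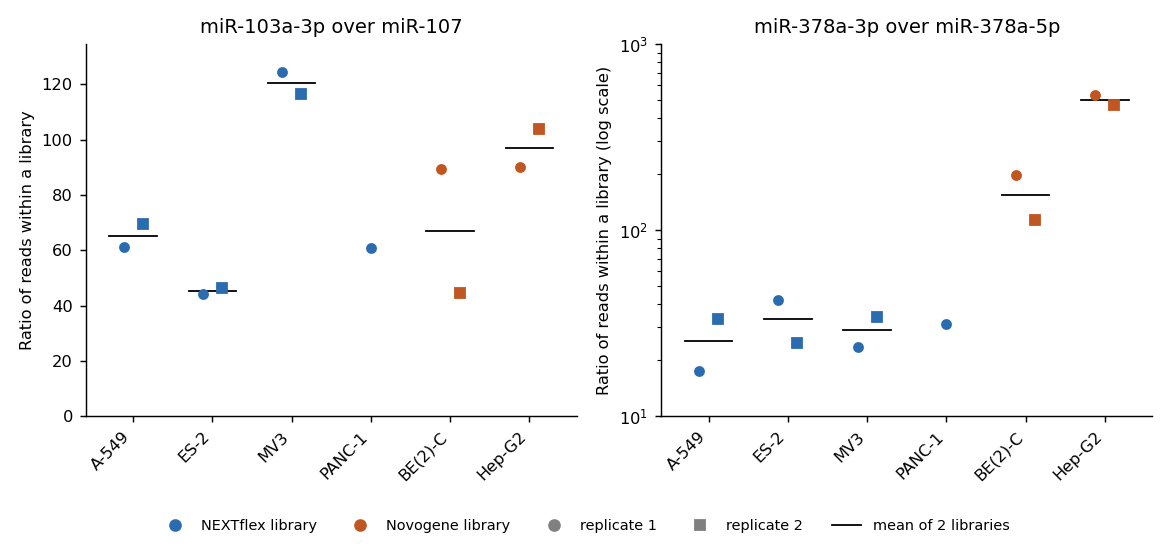
Ratio of miR-103a-3p to miR-107 reads (left, linear axis from 0) and of miR-378a-3p to miR-378a-5p reads (right, log axis) in each library, with colours, symbols and mean lines for preparation, replicate and line. The left ratio is highest in MV3 (125 and 117), and the right one is above 100 only in the Novogene libraries of BE(2)-C and Hep-G2.

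Other products of the same hairpins and families were examined as the nearest relatives of the members. Of 15 such miRNAs 14 were in the tables, and 5 passed the filter. Relatives of miR-378a-3p with the same seed are shown to make clear how little separates them.
miR-378a-3p: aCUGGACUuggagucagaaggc
miR-378i: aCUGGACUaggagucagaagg
miR-378c: aCUGGACUuggagucagaagagugg
miR-422a: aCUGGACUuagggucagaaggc
MiR-378i differs from miR-378a-3p by U9A and is a base shorter, miR-378c differs by G21A and C22G and is longer at the 3′ end, and miR-422a differs by G10A and A12G.

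The 10 other family members together had 3 to 15 reads in each of the 7 NEXTflex libraries but 530 to 1621 in the 4 Novogene libraries. Per 100 reads of miR-378a-3p these were 0.158 to 2.41 and 7.12 to 8.35 reads, respectively. The Novogene libraries of both lines thus had nearly the same share, even though miR-378a-3p itself differed several-fold between them in CPM. MiR-378i had 0 reads in ES-2, at most 0.875 per 100 reads of miR-378a-3p in the other NEXTflex libraries, and 3.36 to 4.13 in the Novogene libraries. MiR-378c had 0.0264 to 1.13 and 1.82 to 2.55 reads per 100, and miR-378d 0 to 0.704 and 0.941 to 2.10. MiR-422a did not separate the preparations, with up to 0.352 reads per 100 in NEXTflex and 0.263 to 0.309 in Novogene libraries. The levels of such near-identical miRNAs are uncertain, since how reads matching more than one of them were assigned is not given in the sources used here. Line and preparation cannot be told apart for this share.

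**Figure D5:**
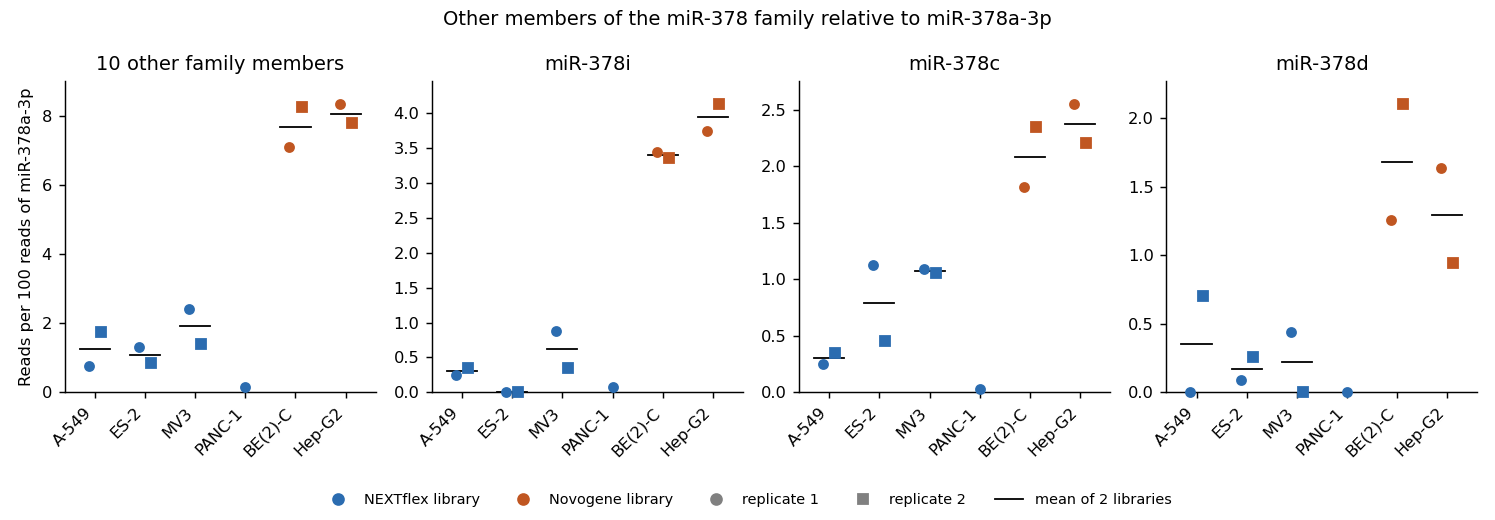
Reads of the 10 other miR-378 family members together, and of miR-378i, miR-378c and miR-378d alone, per 100 reads of miR-378a-3p in each library (linear axes from 0). All 4 Novogene libraries lie at 7.12 or more for the sum, and no NEXTflex library lies above 2.41.

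The 5 tested relatives were miR-33a-3p, miR-33b-3p, miR-378c, miR-378d and miR-378i. MiR-33a-3p and miR-378d reached the filter only in BE(2)-C, so the number of relatives called in BE(2)-C minus Hep-G2 is not counted as a result. With TMM factors 0 of the 5 were called in this pair, where 351 of all 546 tested miRNAs were (limma). MiR-378c was lower in A-549 than in ES-2 (-2.06 ± 0.41, adjusted p = 0.00393, limma) and than in MV3 (-1.82 ± 0.41, adjusted p = 0.00678), as was miR-378a-3p, but with 1 to 13 reads in each NEXTflex library. With TMM factors the difference from MV3 was -1.19 ± 0.44 (adjusted p = 0.0559, limma). MiR-378i, with 6 reads in MV3, 2 in A-549 and 0 in ES-2, was called lower in ES-2 than in MV3 (adjusted p = 0.00851, and 0.0490 with TMM factors, limma), opposite to miR-378a-3p. It was also called lower in A-549 than in MV3, but not with TMM factors (adjusted p = 0.0247 and 0.176, limma). MiR-33b-3p was not called in any NEXTflex pair, with 9.15 ± 4.01 CPM in A-549, 7.09 ± 0.17 CPM in ES-2 and 11.1 ± 1.13 CPM in MV3 (SD, n = 2 each).

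The group of miR-15 and miR-107 contains miRNAs with AGCAGC at their 5′ end, and was examined because miR-103a-3p and miR-107 belong to it. The motif AGCAGC (6 bases, searched in the miRNA strand only) begins at position 1 in miR-103a-3p and miR-107 and at position 2 in the 8 other members listed. It lay within the first 8 bases of 13 of the 2281 mature miRNAs with a RefSeq sequence.
miR-103a-3p: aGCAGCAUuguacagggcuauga
miR-16-5p: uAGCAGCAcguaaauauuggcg
miR-15b-5p: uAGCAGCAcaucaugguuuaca
miR-503-5p: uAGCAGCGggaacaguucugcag
The capitals again mark bases 2 to 8, and the shift by a base gives miR-16-5p and miR-15b-5p a different seed from miR-103a-3p. These miRNAs are known regulators of cell cycle genes.

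Of the 8 group miRNAs outside the members 7 were tested. MiR-16-5p had 1588 ± 86.5 CPM in A-549, 3130 ± 77.4 in ES-2, 3695 ± 276 in MV3 and 3810 in PANC-1, but only 13.2 ± 1.38 in Hep-G2 and 295 ± 157 in BE(2)-C (SD, n = 2 except PANC-1). MiR-103a-3p was therefore above miR-16-5p in every line, by the least in PANC-1 and by the most in Hep-G2. Of all tested miRNAs, 50.5% were called in either direction in A-549 against ES-2, 57.3% in A-549 against MV3, 32.8% in ES-2 against MV3 and 83.0% in BE(2)-C against Hep-G2. With TMM factors 258, 262, 148 and 351 of the 546 tested miRNAs were called in the same order of pairs. In A-549 against ES-2, 3 of the 7 were called lower, with a median of -0.98, and 0 were called higher. In A-549 against MV3 the same numbers were 3 and 0, with a median of -0.88, but with TMM factors 1 was lower and 2 were higher. In ES-2 against MV3, 2 were higher, namely miR-503-5p (1.30 ± 0.20, adjusted p = 0.00202, limma) and miR-424-5p (1.76 ± 0.37, adjusted p = 0.00840), whereas miR-103a-3p was lower. In BE(2)-C against Hep-G2, 7 were higher with a median of 3.44. With TMM factors 4 of them were still called higher (median 1.143), among them miR-16-5p (1.36 ± 0.33, adjusted p = 0.00648), while miR-103a-3p was lower.

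Among 17 miRNAs known as regulators of cholesterol and lipid genes, all 17 were in the tables and 14 were tested. Of these, 13 differed across the 6 lines and 11 within the NEXTflex lines, where 99.3% and 85.4% of all tested miRNAs did. MiR-148a-3p, which targets the LDL receptor, reached 739220 ± 19263 CPM in Hep-G2 against 10.7 ± 5.80 in ES-2 (SD, n = 2). MiR-27b-3p, a regulator of lipid genes in liver, was higher in A-549 than in ES-2 by 4.09 ± 0.43 (adjusted p = 0.000124, limma), opposite to miR-378a-3p. MiR-26a-5p was lower in A-549 than in ES-2 (-1.65 ± 0.29, adjusted p = 0.00197) and than in MV3 (-1.57 ± 0.29, adjusted p = 0.00253). MiR-30c-5p, known to repress the lipoprotein assembly protein MTTP, was higher in ES-2 than in MV3 (1.16 ± 0.35, adjusted p = 0.0400). With TMM factors these differences were 4.40 ± 0.39 for miR-27b-3p, -1.33 ± 0.26 and -0.77 ± 0.26 for miR-26a-5p, and 1.65 ± 0.30 for miR-30c-5p. All were still called, that of miR-26a-5p from MV3 with an adjusted p of 0.0434 (limma). In A-549 against ES-2, 2 of the 14 were called higher and 5 lower (median -0.67), in A-549 against MV3 1 and 7 (median -0.99), in ES-2 against MV3 1 and 2 (median -0.16) and in BE(2)-C against Hep-G2 9 and 2 (median 2.47). With TMM factors these counts were 3 and 5, 4 and 4, 2 and 1, and 3 and 5. Over all tested miRNAs the shares called on the CPM scale were 50.5%, 57.3%, 32.8% and 83.0% in the same order of pairs. With TMM factors 258, 262, 148 and 351 of the 546 tested miRNAs were called.

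The miRNAs whose line means on the log2(CPM + 1) scale were most like those of a member were named by Pearson correlation over 6 lines, as a description. The points share library preparation and, in Hep-G2, the dominance of miR-148a-3p. For miR-103a-3p these were miR-130b-3p (r = 0.98, and 0.94 with TMM factors) and miR-30d-5p (0.98 and 0.91). For miR-107 they were miR-484 (1.00) and miR-125b-1-3p (0.99), which with TMM factors had r = 0.37 and -0.21. MiR-378a-3p was most like miR-3615 (0.95 and 0.97) and miR-4485-3p (0.94 and 0.98), and miR-378a-5p most like miR-181a-3p (0.98 and 0.75) and miR-181b-3p (0.98 and 0.82). The likeness of miR-107 to its nearest miRNAs was thus lost with the other scaling. For miR-103a-3p and miR-378a-3p, r stayed at 0.91 or more. MiR-4485-3p reached the filter only in BE(2)-C (19.2 CPM, at most 3.28 CPM elsewhere), where miR-378a-3p was highest in CPM. Its likeness is therefore partly set by the filter and is not counted as a result. Members were left out of this ranking. The miRNAs named had the highest r of the tested miRNAs that are not members, over only 6 points.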

How the data were processed

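Small RNA libraries of 6 cell lines were analysed (11 libraries, 1173902 to 12137452 assigned reads). The members, lists and tests were chosen with earlier results of these data known. According to the submitters' processing notes, reads were processed with cutadapt 1.14, Bowtie2 2.3.2, SAMtools 1.5, featureCounts 1.5.3 and edgeR 3.30.3 on hg38, and the handling of reads with several matches is not given in the sources used here. The deposited PANC-1 values were CPM, and the authors deposited a scaled signal for the other lines, that is CPM divided by a factor (0.941 to 1.06) set within each table. All nonzero values (100%, tolerance 0.01) were whole multiples of a single read, so whole reads were recovered, rows of one name summed and CPM recomputed for each library.

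Line was the only factor in limma 3.58.1 (R 4.3.3, eBayes with trend, pseudocount 1, filter 10 CPM, two-sided contrasts, Benjamini-Hochberg threshold 0.05). This test on CPM was fixed before the scaled signal was known, and edgeR 4.0.16 and DESeq2 1.42.0 were run on the recovered counts as alternatives, among 13 alternatives besides leaving out each library. A lone library is assumed to vary like the others. Log2 differences understate those of weakly read miRNAs. The fit was tested on simulated data for A-549 minus ES-2, where 199 of 200 miRNAs changed 4-fold were recovered, with 11 false calls among 434 tested. All simulated libraries had the same spread, and the lines differed only in the changed miRNAs. The wider spread of BE(2)-C and the dominance of miR-148a-3p in Hep-G2 were absent, so that the recovery in the real data is not known from this. Spans of the line means without each library were added after seeing the data. The study describes replicates as biological. Named were all members, up to 4 miRNAs with the highest mean CPM per list and the 2 miRNAs, other than members, most like each tested member. Intervals are 95% Wilson intervals.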

Additional observations from a re-analysis of the deposited data

How the results depend on the processing

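The counts of calls over all miRNAs that moved by over 1.5 times did so with another filter, which also changes the number tested (1608 without a filter and 314 at 100 CPM, against 546). Without a filter, 837 instead of 542 miRNAs differed across the 6 lines and 691 instead of 453 between BE(2)-C and Hep-G2, and with a filter at 100 CPM these counts were 313 and 285, and 230 instead of 387 within NEXTflex. MiR-33a-5p, tested only without a filter, gave an adjusted p of 0.0176 across the 6 lines and 0.0946 within NEXTflex (limma), and miR-33b-5p 0.739 and 0.8005.

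The scaling decided the direction of members in BE(2)-C minus Hep-G2. The log2 difference of miR-103a-3p was -0.87 with TMM factors, -1.31 with quantile normalization, -0.81 with edgeR and -1.002 with DESeq2. That of miR-378a-3p was -0.71, -1.20, -0.73 and -0.86 in the same order. That of miR-107 was -0.25 with TMM factors, -1.50 with quantile normalization, 0.01 with edgeR and -0.20 with DESeq2, and that of miR-378a-5p was -0.84 with quantile normalization. DESeq2 also turned miR-103a-3p in A-549 minus ES-2 to 0.11 and miR-107 in A-549 minus MV3 to 0.12, both without a call. Quantile normalization left 40.9% of the calls in BE(2)-C minus Hep-G2 higher in BE(2)-C. With edgeR and DESeq2 the shares of higher calls were 57.5% and 67.0% in A-549 minus ES-2, 59.2% and 68.0% in A-549 minus MV3, 50.0% and 47.4% in ES-2 minus MV3, and 64.6% and 59.1% in BE(2)-C minus Hep-G2. The cause was not tested.

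When each library was left out in turn, the span of the miR-103a-3p to miR-107 ratio was 2.58 to 2.76 and that of the miR-378a-3p to miR-378a-5p ratio across the 6 lines 17.6 to 28.4. Replicate numbers did not pair the samples (correlation of deviations between -0.05 and 0.11 over 10 pairs of lines). With the number as a replicate block, 535, 363, 274, 308, 175 and 451 miRNAs were called across the 6 lines, across the 4 NEXTflex lines and in the 4 pairs of lines (A-549 minus ES-2, A-549 minus MV3, ES-2 minus MV3 and BE(2)-C minus Hep-G2), and no call of a member changed. Low read counts limit miR-33a-5p, miR-33b-5p and, in Hep-G2, miR-378a-5p.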
